A study of Mus musculus with 18 samples.

Results

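Lung endothelial cells (ECs) and lung fibroblasts were set against heart ECs and heart fibroblasts, to ask whether the difference between the cell types was the same in the 2 organs. The comparison uses 12 of the 18 libraries of the series, 3 per group: every native EC and every control fibroblast library. RNA of cultured mouse cells was sequenced at day 7, and induced ECs made up the other libraries of the series. For each of 14864 expressed genes, of 35727 gene IDs in the table, the quantity measured was the difference between ECs and fibroblasts in lung minus the same difference in heart, on the log2 scale, called the interaction here. It is positive where the EC-fibroblast gap was higher in lung and negative where it was lower in lung. The groups were lung ECs, lung fibroblasts, heart ECs and heart fibroblasts, all grown in EGM2, an endothelial growth medium. The labels call the fibroblasts controls without saying what they are controls for, and give no strain, sex, age, sort or passage. They do not say whether replicates came from separate animals or cultures. The p-values given here thus measure no more than the spread between libraries of a group, which may be technical. That spread was estimated per gene over all 6 groups of the series, induced ECs included.

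Endothelial cells line blood and lymph vessels, hold together through junction proteins such as VE-cadherin, and respond to VEGF, angiopoietin and Notch ligands. Fibroblasts make the collagens and elastic fibre proteins of the tissue around vessels and carry PDGF receptors. Both cell types keep some of the positional identity of their organ in culture, of which Hox genes in lung mesenchyme and Tbx20 and Gata4 in heart mesenchyme are textbook cases.

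The libraries held between 17747632 and 23775372 estimated counts each, in 15928 to 17038 detected genes. Values are CPM, counts relative to the scaled library size. The summed level of 28 pan-endothelial genes averaged 5123 CPM in lung ECs and 264 CPM in lung fibroblasts, and 4013 CPM in heart ECs and 1032 CPM in heart fibroblasts, so ECs stood above fibroblasts of their organ in every library. The 32 fibroblast and matrix genes summed to 30507 CPM in lung ECs and 80172 CPM in lung fibroblasts, and to 51064 CPM in heart ECs and 63264 CPM in heart fibroblasts, so transcripts of this list were abundant in the EC libraries too. The 20 macrophage genes ranged from 9568 to 11498 CPM in lung ECs, 1374 to 1745 CPM in lung fibroblasts, 358 to 471 CPM in heart ECs and 273 to 313 CPM in heart fibroblasts, with none of them at 0 counts in any group. Epithelial genes averaged 340 CPM in lung ECs and 22.6 CPM in lung fibroblasts, and 29.6 CPM in heart ECs and 3.19 CPM in heart fibroblasts. The list held 18 genes, of which 9 had no count in heart ECs. Among its 11 tested members, Cldn4, Epcam and Esrp1 had no count in heart ECs, Cldn7, Epcam and Esrp1 none in heart fibroblasts, and Esrp1 none in lung fibroblasts. In bulk RNA, fewer cells of a type and less RNA per cell cannot be told apart. The third lung EC library and the first lung fibroblast library stood farthest from their own groups.

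**Figure D1:**
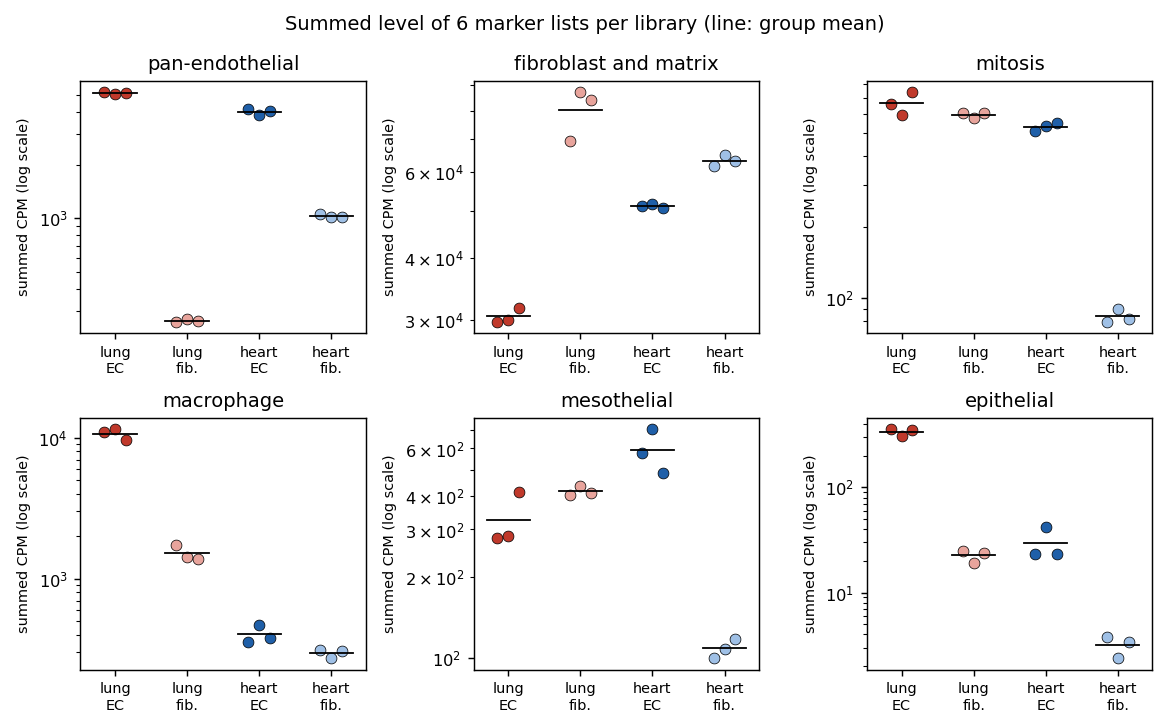
Summed CPM (log axis) of 6 marker lists in each of the 12 libraries, with a line at the group mean; "fib." stands for fibroblast. Macrophage transcripts were at 9568 CPM or more in every lung EC library and at 471 CPM or less in every heart library, and mitosis transcripts were lowest in heart fibroblasts.

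The gap differed between organs for 5130 genes (34.5% of those tested). By edgeR's quasi-likelihood test with Benjamini-Hochberg adjustment, 2415 genes (16.2% of those tested) were called higher and 2715 (18.3%) lower in the interaction at an adjusted p under 0.05. Within lung, 4358 genes (29.3%) were higher in ECs than in fibroblasts and 4271 (28.7%) lower. Within heart, 3590 (24.2%) were higher in ECs than in fibroblasts and 3461 (23.3%) lower. The root mean square gap was 1.62 in lung and 1.17 in heart on the log2 scale, and the lung gap was the wider one for 8860 genes (59.6%). Genes higher in ECs of both organs numbered 2126, which is 48.8% of the lung list and 59.2% of the heart list. Genes lower in ECs of both organs numbered 2213, or 51.8% of the lung list and 63.9% of the heart list. Across the 14864 genes the 2 gaps, which share no library but share 1 scaling, had a Pearson's r of 0.503 and a Spearman's rho of 0.52, given as a description since genes are not independent replicates.

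**Figure D2:**
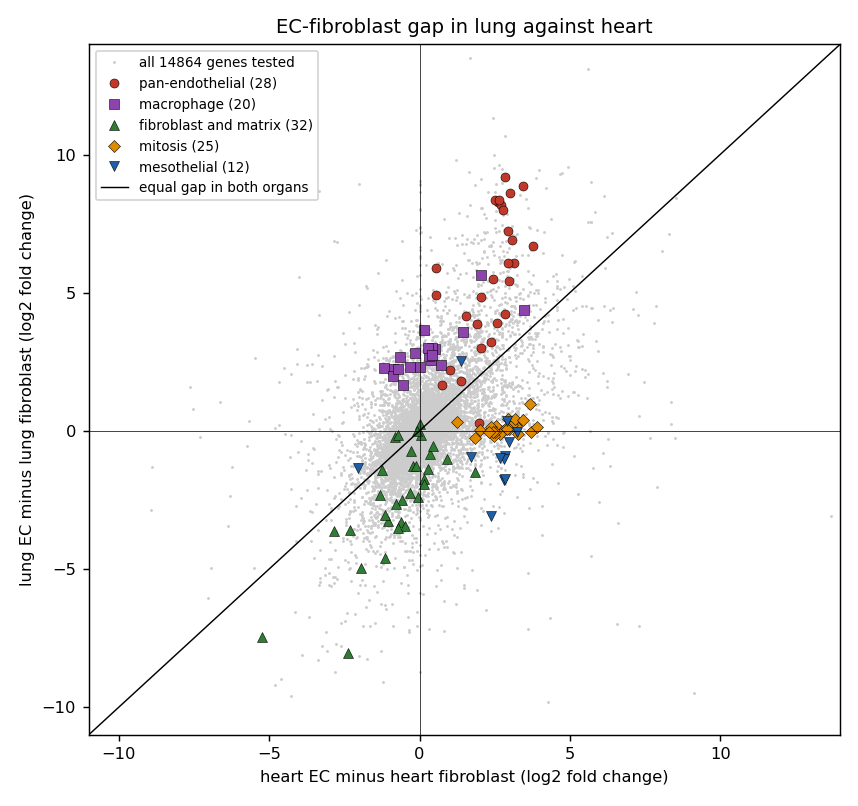
Log2 difference between ECs and fibroblasts in heart (horizontal axis) and lung (vertical axis) for every gene tested (grey) and for 5 gene lists; the diagonal marks an equal gap. Macrophage genes and all pan-endothelial genes but Flt1 lie above the diagonal. All mitosis genes, 10 of 12 mesothelial genes and 28 of 32 fibroblast and matrix genes lie below it.

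The same interaction can come from ECs, from fibroblasts or from both, and the lung to heart differences within each cell type separate these cases. Lung ECs exceeded heart ECs in 3599 genes (24.2%) and were lower in 3524 (23.7%). Lung fibroblasts exceeded heart fibroblasts in 3658 genes (24.6%) and were lower in 3546 (23.9%). Of the 5130 genes called in the interaction, 1556 (30.3%) differed between organs in fibroblasts alone and 1324 (25.8%) in ECs alone. In 915 (17.8%) the organ difference passed the threshold in both cell types and in opposite directions. In 672 (13.1%) it ran the same way and was larger in ECs, in 521 (10.2%) it ran the same way and was larger in fibroblasts, and in 142 (2.77%) neither passed alone. "Alone" here means that the other cell type missed the threshold, which does not show that its difference was 0.

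**Figure D3:**
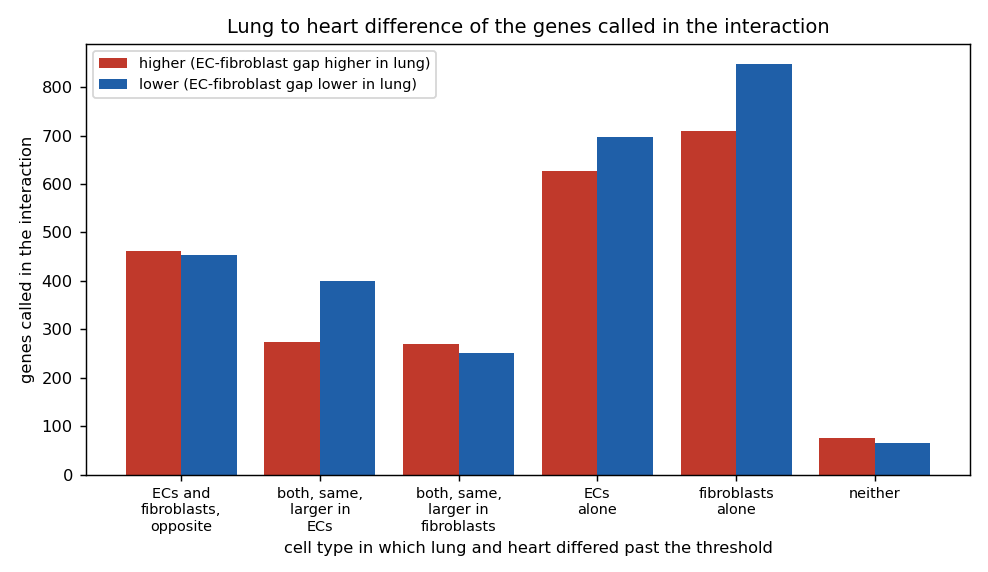
Number of genes called in the interaction (vertical axis), by the cell type in which lung and heart differed past the threshold and by direction. The 2 tallest pairs of bars are organ differences past the threshold in fibroblasts alone and in ECs alone.

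Endothelial genes had a wider EC-fibroblast gap in lung. Of 28 pan-endothelial genes, all tested, 26 (92.9%) were called higher and 1 lower, against 16.2% and 18.3% of all genes. Their median gap was 5.69 in lung and 2.60 in heart on the log2 scale, and their median interaction was 3, against -0.011 over all genes. The organ difference was larger in fibroblasts: 26 of the 28 were lower in lung fibroblasts than in heart fibroblasts (median -3.12), while in ECs 15 were higher in lung and 6 lower (median 0.37). The median member stood in lung fibroblasts at 1.97% of its level in lung ECs, and in heart fibroblasts at 16.5% of its level in heart ECs.

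Cdh5, which encodes VE-cadherin (ENSMUSG00000031871, chr8:104101625-104144511, plus strand, GRCm38), was at 1016.4, 1020.9 and 960.4 CPM in lung ECs and 2.23, 3.88 and 3.39 CPM in lung fibroblasts. It was at 496.7, 425.5 and 474.1 CPM in heart ECs and 85.9, 67.9 and 72.6 CPM in heart fibroblasts. No groups overlapped, and lung fibroblasts stood far below heart fibroblasts while lung ECs stood above heart ECs. The gap was 8.29 ± 0.159 (SE) in lung and 2.62 ± 0.119 in heart, an interaction of 5.66 ± 0.181 (edgeR adjusted p = 2.74e-13). Tie1, a receptor tyrosine kinase of endothelium, was at 226.6, 243.7 and 252.6 CPM in lung ECs and 0.458, 0.623 and 0.722 CPM in lung fibroblasts, against 185.3, 171.3 and 193.8 CPM in heart ECs and 21.6, 20.4 and 26.9 CPM in heart fibroblasts. Lung ECs stood slightly above heart ECs (0.39), and lung fibroblasts far below heart fibroblasts (-5.22), an interaction of 5.61 ± 0.18 (edgeR adjusted p = 2.74e-13). Pecam1, a junctional adhesion molecule, had an interaction of 5.49 ± 0.148, and Emcn, an endothelial sialomucin, of 5.44 ± 0.184. Ptprb, the receptor phosphatase of VE-cadherin and Tie2, averaged 118.5 CPM in lung ECs and 1.98 CPM in lung fibroblasts, but 60.5 CPM in heart ECs and 41.7 CPM in heart fibroblasts. The member called lower was Flt1, VEGF receptor 1: it averaged 74.9 ± 7.38 CPM in lung ECs and 62.2 ± 0.672 CPM in lung fibroblasts, and 164.3 ± 20.3 CPM in heart ECs and 41.5 ± 5.54 CPM in heart fibroblasts (SD, n = 3). Its gap passed the threshold in heart (1.98 ± 0.146) and not in lung (0.27 ± 0.142), and the interaction was -1.72 ± 0.202 (edgeR adjusted p = 3.39e-06). Tspan7 was the member not called.

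Endothelial transcription factors split. Of 25 listed, 23 were tested, and 13 (56.5%) were called higher and 7 (30.4%) lower, against 16.2% and 18.3% of all genes. Those called higher included Sox18, a SoxF factor, at 37.5 ± 5.02 CPM in lung ECs, 0.138 ± 0.0786 CPM in lung fibroblasts, 18.5 ± 1.57 CPM in heart ECs and 4.46 ± 0.626 CPM in heart fibroblasts, with an interaction of 6.03 ± 0.303 (edgeR adjusted p = 8.13e-11). Erg, an ETS factor that maintains endothelial genes, had an interaction of 4.60 ± 0.322, and 5.47 without the second lung fibroblast library. Those called lower were Meox2, Klf2, Klf4, Foxc1, Nr2f2 and Gata2, and Heg1, a listed gene that encodes a membrane receptor and not a transcription factor. Klf2 and Klf4, factors induced by flow in endothelium, averaged 11.5 and 41.4 CPM in lung ECs and 29.3 and 124.3 CPM in lung fibroblasts, and 23.2 and 88.4 CPM in heart ECs and 19.1 and 86.3 CPM in heart fibroblasts. Their interactions were both -1.62.

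Among ligands and receptors of endothelial signalling, most calls in the Notch and lymphatic lists were higher, and the VEGF and angiopoietin list had calls in both directions. Of 17 Notch pathway genes 10 (58.8%) were called higher and 1 (5.88%) lower, against 16.2% and 18.3% of all genes. Their median interaction was 1.67. Dll4, a Notch ligand of arterial and sprouting endothelium, was at 26.5, 33.1 and 29.5 CPM in lung ECs and 0.229, 0.24 and 0.226 CPM in lung fibroblasts. It was at 9.37, 11.3 and 10.4 CPM in heart ECs and 5.9, 3.69 and 6.23 CPM in heart fibroblasts. The heart groups were adjacent and the lung groups far apart, with an interaction of 5.99 ± 0.285 (edgeR adjusted p = 4.4e-11). Rbpj, the DNA-binding partner of the cleaved Notch receptor, was called lower at -1.23 ± 0.147. Of 16 VEGF and angiopoietin genes 9 (56.2%) were called higher and 6 (37.5%) lower. Angpt2, a Tie2 ligand made by endothelium, averaged 975.7 CPM in lung ECs and 9.48 CPM in lung fibroblasts, and 220.9 CPM in heart ECs and 34.3 CPM in heart fibroblasts (interaction 3.99 ± 0.196, edgeR adjusted p = 8.13e-11). Ligands that fibroblasts make went the other way, among them Vegfd, Angpt4 and Angpt1 with interactions of -4.44, -4.18 and -1.86. Of 11 genes of lymphatic endothelium 7 (63.6%) were called higher and 1 (9.09%) lower. Reln averaged 190.1 ± 37.9 CPM in lung ECs, 0.275 ± 0.133 CPM in lung fibroblasts, 62 ± 2.89 CPM in heart ECs and 3.93 ± 0.499 CPM in heart fibroblasts, and Lyve1, a hyaluronan receptor, 402.6 ± 21.3, 4.05 ± 0.867, 159.2 ± 17.3 and 20.5 ± 2.09 CPM in the same groups (SD, n = 3). Their interactions were 5.48 ± 0.362 and 3.67 ± 0.186. Both genes were called higher in lung ECs than in heart ECs and lower in lung fibroblasts than in heart fibroblasts.

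**Figure D4:**
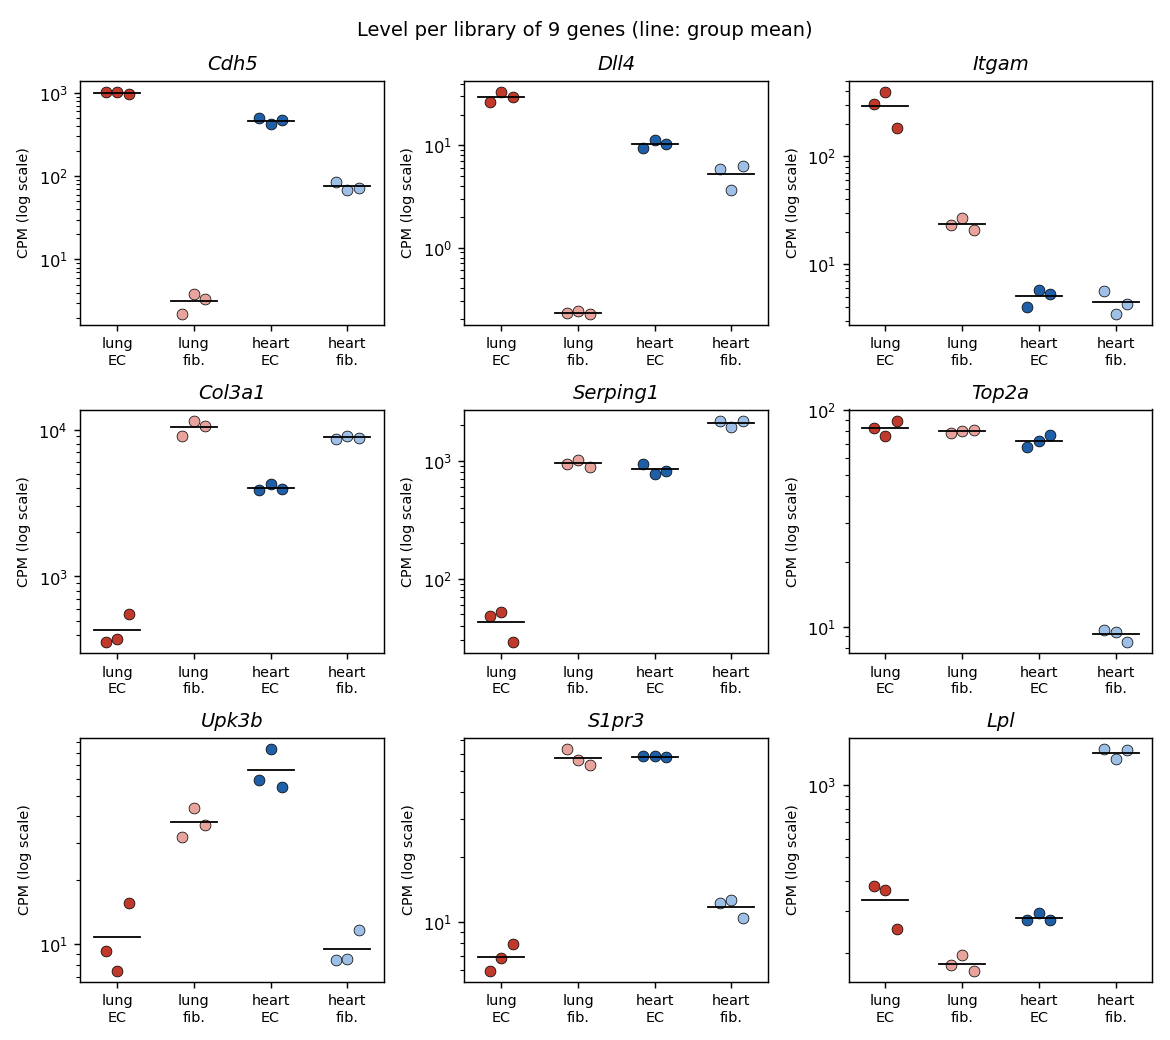
CPM (log axis) of 9 genes in each of the 12 libraries, with a line at the group mean; "fib." stands for fibroblast. Cdh5 and Dll4 are lowest in lung fibroblasts, Itgam is highest in lung ECs, Col3a1 and Serping1 are lowest in lung ECs, Top2a is lowest in heart fibroblasts, and S1pr3 has opposite gaps in the 2 organs.

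Most members of the pan-endothelial list were called in the same direction in the interaction. Promoter sequences are shown for the 3 called members with the largest interaction that RefSeq windows cover. These windows (GRCm38.p6) run from 250 bases before to 50 bases after a gene's start, on the gene's strand, 5′ to 3′. Capitals mark AGGAAG on either strand, a core that ETS factors can bind, which on the opposite strand reads CTTCCT. Robo4, a guidance receptor of endothelium, is at chr9:37401722-37402021 on the plus strand, Ushbp1 at chr8:71395752-71396051 on the minus strand and Tie1 at chr4:118489800-118490099 on the minus strand.
Robo4: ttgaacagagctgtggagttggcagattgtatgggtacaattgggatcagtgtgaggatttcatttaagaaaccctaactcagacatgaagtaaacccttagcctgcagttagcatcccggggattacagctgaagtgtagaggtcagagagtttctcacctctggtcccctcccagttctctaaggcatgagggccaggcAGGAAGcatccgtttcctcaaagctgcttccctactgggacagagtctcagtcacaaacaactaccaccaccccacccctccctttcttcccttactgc
Ushbp1: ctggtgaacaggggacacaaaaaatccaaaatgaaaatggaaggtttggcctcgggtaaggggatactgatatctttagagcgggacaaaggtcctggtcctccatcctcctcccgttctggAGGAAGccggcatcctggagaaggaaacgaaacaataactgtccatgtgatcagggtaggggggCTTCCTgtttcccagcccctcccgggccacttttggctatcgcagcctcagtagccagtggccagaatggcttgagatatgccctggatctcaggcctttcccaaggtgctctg
Tie1: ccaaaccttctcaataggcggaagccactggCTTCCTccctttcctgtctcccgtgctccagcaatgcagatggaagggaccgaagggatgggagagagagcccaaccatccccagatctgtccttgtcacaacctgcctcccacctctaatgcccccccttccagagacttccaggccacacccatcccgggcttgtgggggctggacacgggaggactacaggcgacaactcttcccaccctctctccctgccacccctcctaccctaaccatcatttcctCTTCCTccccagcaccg
Of the 28 members 16 had a window, and 10 of these (62.5%) held AGGAAG at least once. Of all 27025 genes with a window, expressed here or not, 38.4% held it. A match describes the letters and is not a binding site, and its part in the interaction was not tested.

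Robo4 averaged 137.9 CPM in lung ECs and 0.407 CPM in lung fibroblasts, and 50.3 CPM in heart ECs and 8.86 CPM in heart fibroblasts. Its interaction was 5.86 ± 0.406, and 7.52 without the second lung fibroblast library. Ushbp1 averaged 12.9 CPM in both EC groups, 0.0319 CPM in lung fibroblasts and 2.06 CPM in heart fibroblasts.

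Macrophage genes were higher in ECs than in fibroblasts of lung, and ran in both directions in heart. Of 20 listed genes, all tested, 18 (90.0%) were called higher and none lower, against 16.2% and 18.3% of all genes. No member was lower at an unadjusted p under 0.05 or by DESeq2. All 20 were higher in lung ECs than in lung fibroblasts (median gap 2.70), while in heart 5 were higher in ECs and 5 lower (median 0.22). Nearly all were higher in lung in both cell types: 19 of 20 in ECs (median 5.06) and 18 of 20 in fibroblasts (median 2.38). Itgam, which encodes the integrin CD11b, was at 306.3, 394.7 and 184.1 CPM in lung ECs and 23.3, 26.9 and 20.8 CPM in lung fibroblasts, against 4.03, 5.82 and 5.28 CPM in heart ECs and 5.64, 3.47 and 4.3 CPM in heart fibroblasts. The heart groups overlapped, and both lung groups stood above them (interaction 3.48 ± 0.452, edgeR adjusted p = 3.34e-05). Csf1r, the receptor that macrophages need for survival, averaged 150.2 ± 11.8 CPM in lung ECs, 23 ± 2.32 CPM in lung fibroblasts, 8.88 ± 0.533 CPM in heart ECs and 7.18 ± 0.441 CPM in heart fibroblasts (interaction 2.40 ± 0.147, edgeR adjusted p = 9.56e-10). Lyz2, whose reads can be shared with the lysozyme copy Lyz1, averaged 7117.1 CPM in lung ECs and 904.2 CPM in lung fibroblasts, and 216.8 CPM in heart ECs and 162.7 CPM in heart fibroblasts. C1qa, C1qb and C1qc, the chains of complement C1q, were higher in lung ECs than in lung fibroblasts and lower in heart ECs than in heart fibroblasts. Cd14 and Fcgr1 were not called. The part of these transcripts in any other result was not tested.

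Fibroblast and matrix genes ran opposite to the endothelial list. Of 32 genes, all tested, 26 (81.2%) were called lower and 1 higher, against 18.3% and 16.2% of all genes. The median gap was -2.08 in lung and -0.53 in heart. Here the organ difference was larger in ECs: 29 of the 32 were lower in lung ECs than in heart ECs (median -1.84), while fibroblasts of the organs differed in both directions (9 higher and 14 lower in lung, median -0.17). Col3a1, the collagen III chain (ENSMUSG00000026043, chr1:45311538-45349706, plus strand, GRCm38), was at 357.1, 373.8 and 558 CPM in lung ECs and 9003.6, 11511.7 and 10514.3 CPM in lung fibroblasts. It was at 3907.2, 4238.1 and 3933.4 CPM in heart ECs and 8670.3, 9102.6 and 8793.5 CPM in heart fibroblasts. The fibroblast groups overlapped and the EC groups were far apart, with an interaction of -3.45 ± 0.26 (edgeR adjusted p = 3.14e-08). Col1a1, a collagen I chain, averaged 2742.4 CPM in lung ECs and 14497.8 CPM in lung fibroblasts, but 8285.8 CPM in heart ECs and 8516.9 CPM in heart fibroblasts, so its gap was -2.40 ± 0.119 in lung and -0.04 ± 0.113 in heart (interaction -2.36 ± 0.161, edgeR adjusted p = 3.46e-09). The PDGF receptor genes Pdgfra and Pdgfrb had interactions of -1.88 ± 0.198 and -1.02 ± 0.196. Postn, which encodes periostin, was the member called higher, at 0.58 ± 0.115: it was lower in ECs than in fibroblasts of both organs, by less in lung. Fn1, Lum, Vim, Dcn and Thy1 were not called.

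Complement and acute phase genes had the same direction. Of 15 genes, all tested, 9 (60.0%) were called lower and none higher, against 18.3% and 16.2% of all genes. None was higher at an unadjusted p under 0.05 or by DESeq2. Serping1, the C1 inhibitor, was at 48.2, 51.6 and 28.9 CPM in lung ECs and 943.2, 1019.2 and 875.1 CPM in lung fibroblasts. It was at 941.7, 769.2 and 820 CPM in heart ECs and 2185.4, 1922.1 and 2147.8 CPM in heart fibroblasts. Lung ECs were lowest by far, and heart ECs and lung fibroblasts overlapped (interaction -3.16 ± 0.238, edgeR adjusted p = 2.6e-08). C1s1, a C1 protease, had an interaction of -2.41 ± 0.189 and C4b of -2.57 ± 0.271, though C4b can share reads with its copy C4a. Serpina3n and Serpina3m, secreted serine protease inhibitors, had interactions of -5.19 ± 0.306 and -6.19 ± 0.297, but belong to a cluster of similar genes among which counting can split reads. Saa3 and Lcn2 were higher in ECs than in fibroblasts of both organs and were not called. In lung ECs the summed list was at 4463.5, 6781 and 1377 CPM, with the third library lowest.

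Mitosis genes were called in a single direction. All 25 listed genes were tested and all 25 were called lower, against 18.3% of all genes. The median gap was 0.07 in lung and 2.91 in heart, and the median difference of lung from heart was 0.20 in ECs and 2.98 in fibroblasts. Summed levels were 659.5, 594.5 and 739.5 CPM in lung ECs, 607.6, 576.3 and 603 CPM in lung fibroblasts, 507.8, 531.9 and 551.7 CPM in heart ECs and 79.4, 90 and 81.7 CPM in heart fibroblasts. The lung groups overlapped, heart ECs came just below, and heart fibroblasts stood apart. Top2a, the DNA topoisomerase of dividing cells, was at 83.3, 76.4 and 89.7 CPM in lung ECs and 78.7, 80.3 and 81.1 CPM in lung fibroblasts, against 67.9, 72 and 76.9 CPM in heart ECs and 9.66, 9.48 and 8.47 CPM in heart fibroblasts. The first 3 groups overlapped or nearly so, and heart fibroblasts were far below them (interaction -2.92 ± 0.144, edgeR adjusted p = 7.04e-11). Mki67, the Ki-67 antigen, also differed within lung, with 101.6 ± 9.03 CPM in ECs and 51.9 ± 1.56 CPM in fibroblasts, and within heart, with 40.2 ± 4.63 CPM in ECs and 3.2 ± 0.852 CPM in fibroblasts (interaction -2.69 ± 0.224, edgeR adjusted p = 4.83e-08).

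Many genes of G2 and M phase carry a CCAAT box and a cell cycle homology region near their start. The promoters of the 3 members with the largest interaction are shown, from RefSeq windows (GRCm38.p6) as above. Capitals mark CCAAT or TTTGAA on either strand (ATTGG and TTCAAA where on the opposite one), and no matches overlapped. Birc5, which encodes survivin, is at chr11:117848987-117849286 on the plus strand, Cenpf, a kinetochore protein gene, at chr1:189688037-189688336 on the minus strand and Ccnb2, a mitotic cyclin gene, at chr9:70421505-70421804 on the minus strand.
Birc5: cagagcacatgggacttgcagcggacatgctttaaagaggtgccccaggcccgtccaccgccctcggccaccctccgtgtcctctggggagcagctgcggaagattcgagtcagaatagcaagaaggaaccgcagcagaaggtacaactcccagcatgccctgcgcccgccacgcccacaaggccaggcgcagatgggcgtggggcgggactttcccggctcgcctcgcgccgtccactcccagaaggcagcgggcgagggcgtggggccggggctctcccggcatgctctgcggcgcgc
Cenpf: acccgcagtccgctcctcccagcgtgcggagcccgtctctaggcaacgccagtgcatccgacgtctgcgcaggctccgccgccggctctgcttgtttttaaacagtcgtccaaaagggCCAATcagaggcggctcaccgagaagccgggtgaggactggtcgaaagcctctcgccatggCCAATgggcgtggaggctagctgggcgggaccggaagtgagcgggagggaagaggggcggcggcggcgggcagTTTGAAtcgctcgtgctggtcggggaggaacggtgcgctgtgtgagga
Ccnb2: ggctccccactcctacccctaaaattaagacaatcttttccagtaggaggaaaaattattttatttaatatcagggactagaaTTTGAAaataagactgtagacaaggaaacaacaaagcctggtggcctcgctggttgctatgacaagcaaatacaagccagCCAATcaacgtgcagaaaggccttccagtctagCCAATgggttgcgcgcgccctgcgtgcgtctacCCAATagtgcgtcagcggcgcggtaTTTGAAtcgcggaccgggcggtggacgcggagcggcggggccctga
The Birc5 window held neither motif, Cenpf held CCAAT 2 times and TTTGAA 1 time, and Ccnb2 held CCAAT 3 times and TTTGAA 2 times. Of the 25 members 21 had a window. Of these, 18 (85.7%) held CCAAT and 16 (76.2%) held TTTGAA. Of all 27025 genes with a window, expressed here or not, 41.1% held CCAAT and 20.2% TTTGAA. The part of either motif in the interaction was not tested.

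Birc5 was at 11.2, 6.48 and 11.6 CPM in lung ECs and 10.2, 8 and 8.44 CPM in lung fibroblasts, against 6.99, 8.68 and 9.44 CPM in heart ECs and 0.574, 0.474 and 0.605 CPM in heart fibroblasts. Only the heart fibroblasts stood apart, with an interaction of -3.77 ± 0.347 (edgeR adjusted p = 1.24e-07). Cenpf had an interaction of -3.75 ± 0.3 and Ccnb2 of -3.40 ± 0.311. DNA replication genes shared the direction in smaller size. Of 25 tested, 19 (76.0%) were called lower and none higher, against 18.3% and 16.2% of all genes. None was higher at an unadjusted p under 0.05 or by DESeq2, and the median interaction was -1.06. Uhrf1, which recruits the maintenance DNA methyltransferase, had an interaction of -2.70 ± 0.168. The helicase gene Mcm2 and the transcription factor gene E2f1 were not called.

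Mesothelial genes reversed between the organs. Of 12 genes, all tested, 10 (83.3%) were called lower and 1 higher, against 18.3% and 16.2% of all genes. The median gap was -0.96 in lung and 2.80 in heart. Upk3b, a uroplakin of mesothelium, was at 9.24, 7.5 and 15.7 CPM in lung ECs and 32.1, 43.8 and 36.5 CPM in lung fibroblasts, against 59.7, 83.1 and 55.1 CPM in heart ECs and 8.41, 8.48 and 11.6 CPM in heart fibroblasts. It was higher in fibroblasts than in ECs in lung and the other way in heart, with no overlap within either organ (interaction -4.59 ± 0.41, edgeR adjusted p = 5.24e-07). Wt1, a transcription factor of mesothelium and epicardium, was at 9.24, 11.1 and 12.4 CPM in lung ECs and 20, 21.9 and 22.7 CPM in lung fibroblasts, against 11.2, 14.4 and 8.33 CPM in heart ECs and 2.04, 2.26 and 0.968 CPM in heart fibroblasts. The EC groups overlapped and the fibroblast groups did not (interaction -3.65 ± 0.337, edgeR adjusted p = 1.4e-07). Krt19, a keratin shared with epithelium, was the member called higher, at 1.17 ± 0.419. Krt19 was not among the named genes followed with libraries left out.

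Hox genes were higher in lung in both cell types, by more in fibroblasts. Of 19 listed, 17 were tested, and 9 (52.9%) were called lower and 1 higher. In all 9 the organ difference passed the threshold in both cell types, ran the same way and was larger in fibroblasts. Hoxa5, which patterns lung mesenchyme, was at 17.2, 19.4 and 23.8 CPM in lung ECs and 43.1, 43.2 and 43.9 CPM in lung fibroblasts, against 0.852, 0.165 and 0.666 CPM in heart ECs and 0.418, 0.369 and 0.242 CPM in heart fibroblasts. The lung groups did not overlap and the heart groups, both near the floor, did (interaction -1.83 ± 0.481, edgeR adjusted p = 0.00606). The call of Hoxa5 was not kept in every fit that left out 1 library. Hoxb7 had no count in heart fibroblasts and Hoxc4 none in either heart group. Hoxd8 was the member called higher, at 16.1 ± 1.37 CPM in lung ECs and 1.12 ± 0.435 CPM in lung fibroblasts, against 8.51 ± 1.19 CPM in heart ECs and 4.27 ± 0.577 CPM in heart fibroblasts (interaction 2.86 ± 0.297, edgeR adjusted p = 5.57e-07). Among 16 tested mesenchyme factors of lung 7 (43.8%) were called lower and 2 (12.5%) higher, and among 12 of heart 5 (41.7%) lower and 2 (16.7%) higher. The shares over all genes were 18.3% lower and 16.2% higher, so the higher calls were at or under the background. Tbx20, a heart factor, averaged 4.53 CPM in lung ECs and 2.88 CPM in lung fibroblasts, and 641.1 CPM in heart ECs and 1143.3 CPM in heart fibroblasts, an interaction of 1.48 ± 0.189 beside organ differences of -7.14 in ECs and -8.63 in fibroblasts.

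Chaperones of the endoplasmic reticulum and immediate early genes were called in a single direction, with 4 and 6 members not called. Of 15 unfolded protein and chaperone genes, all tested, 11 (73.3%) were called lower and none higher, against 18.3% and 16.2% of all genes. None was higher at an unadjusted p under 0.05 or by DESeq2, and the median interaction was -0.77. Pdia6, a disulfide isomerase, averaged 453.8 ± 60 CPM in lung ECs, 834.3 ± 80.9 CPM in lung fibroblasts, 622.9 ± 37.5 CPM in heart ECs and 426.5 ± 17 CPM in heart fibroblasts (interaction -1.42 ± 0.131, edgeR adjusted p = 1.21e-07). Of 8 members the organ difference passed the threshold in both cell types in opposite directions, lower in lung ECs and higher in lung fibroblasts than in their heart counterparts. Of 16 stress kinase and immediate early genes, all tested, 10 (62.5%) were called lower and none higher, against 18.3% and 16.2% of all genes. None was higher at an unadjusted p under 0.05 or by DESeq2. Fos averaged 40.4 ± 9.77 CPM in lung ECs, 200.3 ± 11.4 CPM in lung fibroblasts, 84.5 ± 9.87 CPM in heart ECs and 126.4 ± 19.7 CPM in heart fibroblasts (interaction -1.73 ± 0.202, edgeR adjusted p = 3.39e-06). Atf4 and Ddit3 of the chaperone list and Dusp1 and Jund of the immediate early list were among those not called.

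**Figure D5:**
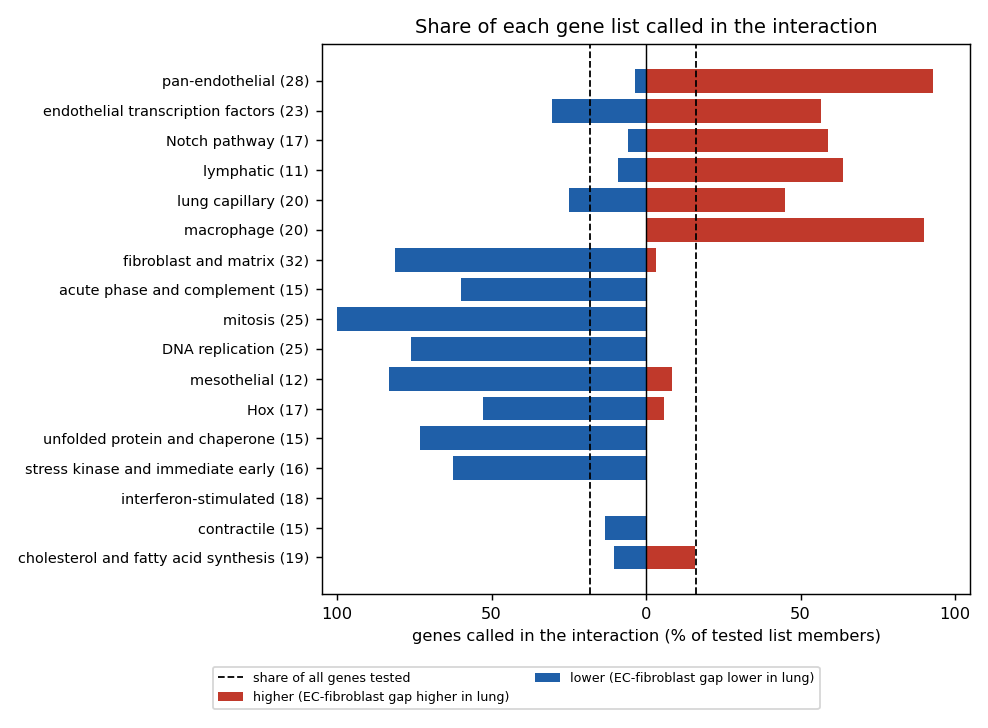
Share of tested members of 17 gene lists (number tested in parentheses) called higher (right) or lower (left) in the interaction, in percent; dashed lines mark the shares of all genes, 16.2% and 18.3%. The mitosis list reaches 100% lower, and the interferon-stimulated list has no call.

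Genes past the threshold in both organs with gaps of opposite sign numbered 299 with the gap up in lung and down in heart, and 375 the other way. These were 6.86% of the genes higher in lung ECs than in lung fibroblasts and 8.78% of those lower. Over all genes, 23.3% were lower and 24.2% higher in heart ECs than in heart fibroblasts. S1pr3, a sphingosine 1-phosphate receptor (ENSMUSG00000067586, chr13:51408639-51422797, plus strand, GRCm38), was at 5.98, 6.85 and 7.96 CPM in lung ECs and 63.5, 56.4 and 53.4 CPM in lung fibroblasts, against 58.8, 58.9 and 58.2 CPM in heart ECs and 12.3, 12.7 and 10.5 CPM in heart fibroblasts. The low and high groups changed places between the organs without overlap (gaps of -3.05 ± 0.27 in lung and 2.31 ± 0.261 in heart, interaction -5.36 ± 0.375, edgeR adjusted p = 3.25e-08). Its relative S1pr1 was higher in ECs of both organs. Sez6l was at 1.99, 2.08 and 2.58 CPM in lung ECs and 14.4, 13.7 and 16.3 CPM in lung fibroblasts, and at 12.8, 13.7 and 11.3 CPM in heart ECs and 0.783, 0.579 and 0.847 CPM in heart fibroblasts (interaction -6.82 ± 0.321, edgeR adjusted p = 4.02e-11). It too was the higher of the pair in fibroblasts of lung and in ECs of heart. Fgf10, the growth factor of lung mesenchyme that drives airway branching, averaged 2.68 CPM in lung ECs and 21.2 CPM in lung fibroblasts, and 1.05 CPM in heart ECs and 0.146 CPM in heart fibroblasts. Its interaction was -5.80 ± 0.571 (edgeR adjusted p = 2.86e-07), and -5.20 and -7.09 without the first and the second heart fibroblast library. In the other direction, the chemokine receptor gene Ccr1 was at 25.4, 30.6 and 32.8 CPM in lung ECs and 7.56, 5.56 and 5.55 CPM in lung fibroblasts, against 0.224, 0.275 and 0.222 CPM in heart ECs and 0.783, 0.842 and 1.21 CPM in heart fibroblasts (interaction 4.20 ± 0.437, edgeR adjusted p = 5.76e-07). Ccr1 was higher in lung in both cell types, as was most of the macrophage list. Stra6l, a receptor of retinol binding protein, averaged 10.8 CPM in lung ECs and 0.921 CPM in lung fibroblasts, and 0.41 CPM in heart ECs and 2.42 CPM in heart fibroblasts (interaction 6.09 ± 0.472, edgeR adjusted p = 1.68e-08).

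In some genes 1 cell type carried the organ difference while the other had a log2 difference of at most 0.25 in size. Vegfd, a lymphangiogenic growth factor (ENSMUSG00000031380, chrX:164373378-164402650, plus strand, GRCm38), was at 3.55, 3.91 and 11.8 CPM in lung ECs and 418, 474.5 and 464.8 CPM in lung fibroblasts, against 129.8, 148.2 and 150.4 CPM in heart ECs and 469.3, 446 and 461.1 CPM in heart fibroblasts. The fibroblast groups overlapped and lung ECs were lowest, the third library less so; the interaction was -4.44 ± 0.564 (edgeR adjusted p = 3.82e-05), and -5.23 without that library. Svep1, an extracellular matrix protein gene, was likewise lowest in lung ECs, with an interaction of -4.59 ± 0.321. Plau, which encodes urokinase, was at 157.7, 156 and 130.5 CPM in lung ECs and 15.6, 16.1 and 17 CPM in lung fibroblasts, against 30.2, 30 and 39.4 CPM in heart ECs and 19.6, 16 and 14.8 CPM in heart fibroblasts (interaction 2.21 ± 0.244, edgeR adjusted p = 2.22e-06). Here lung ECs were the high group. Lpl, the lipase of triglyceride uptake (ENSMUSG00000015568, chr8:68880491-68907448, plus strand, GRCm38), was at 381.1, 366 and 251 CPM in lung ECs and 177.4, 195.1 and 168.4 CPM in lung fibroblasts, against 274.6, 292.7 and 274.1 CPM in heart ECs and 1418.5, 1286 and 1404.2 CPM in heart fibroblasts. The EC groups overlapped, and heart fibroblasts stood above all others (interaction 3.17 ± 0.334, edgeR adjusted p = 3.2e-06). Peg10, an imprinted gene, had the same order of fibroblasts, at 10.4 CPM in lung and 78.1 CPM in heart, with 19.8 CPM in lung ECs and 17.2 CPM in heart ECs.

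Some genes had no count in lung fibroblasts at all, where a floor of 3 counts over the group equals 0.0496 CPM. Gimap5, a GTPase of the immunity-associated family, was at 14.6, 19.3 and 11.4 CPM in lung ECs, so it was at least 304-fold higher there than in lung fibroblasts, against 5.43-fold in heart ECs over heart fibroblasts. Car8, a carbonic anhydrase-related gene, was at least 198-fold higher in lung and 7.17-fold higher in heart. Crisp1, a cysteine-rich secretory protein gene, was at least 1070-fold higher in lung and 51.5-fold higher in heart. The heart value of Crisp1 rests on 6 counts over the heart fibroblast libraries. Floors cover counting error only. Myct1, an endothelial gene, was at 58.8, 56.1 and 71.2 CPM in lung ECs and 0.286, 0 and 0.0451 CPM in lung fibroblasts, against 20, 20.7 and 22.7 CPM in heart ECs and 3.24, 2.9 and 2.42 CPM in heart fibroblasts. Its interaction was 6.32 ± 0.394 (edgeR adjusted p = 1.19e-09), and 8.18 and 5.74 without the first and the second lung fibroblast library. Among genes called lower, Tnfsf8, the CD30 ligand, was at 0.779, 0.612 and 0.792 CPM in lung ECs and 65.9, 72.1 and 67.3 CPM in lung fibroblasts, while heart ECs (0.134, 0.329 and 0.444 CPM) and heart fibroblasts (0.365, 0.211 and 0.363 CPM) were all low and overlapped (interaction -6.46 ± 0.899, edgeR adjusted p = 5.07e-05). Spock2, a proteoglycan gene, and Podn, a secreted leucine-rich repeat protein gene, were also highest in lung fibroblasts, with interactions of -6.15 ± 0.35 and -5.17 ± 0.343.

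Other genes had a similar gap in both organs. The count took genes called in both gaps in the same direction with a mean of at least 10 CPM in 1 group or more. Of these, 530 that were higher in ECs and 617 that were lower had a 95% interval of the interaction inside ±0.5. Genes called in the interaction were not left out. Such an interval can be too narrow. Adora1, with no count in heart fibroblasts, had an SE of 0.148 for the interaction and 1.42 for the heart gap. Clu, a secreted chaperone, was at 719, 678.6 and 693.4 CPM in lung ECs and 94.3, 92.4 and 91.2 CPM in lung fibroblasts, against 516.7, 436.6 and 408.5 CPM in heart ECs and 54.7, 60.5 and 63 CPM in heart fibroblasts. Its gaps were 2.91 ± 0.109 in lung and 2.93 ± 0.109 in heart (95% interval of the interaction -0.33 to 0.28). Sorbs2, an adaptor of the cytoskeleton, had gaps of 2.91 ± 0.0717 and 2.90 ± 0.0706 in lung and heart (interval -0.19 to 0.21) although both cell types were lower in lung than in heart, with organ differences of -0.85 in ECs and -0.86 in fibroblasts. Ace, the angiotensin-converting enzyme and a capillary gene of lung in the body, was lower in ECs than in fibroblasts of both organs: 133.4 ± 20.8 CPM in lung ECs and 448.9 ± 86.4 CPM in lung fibroblasts, and 902.4 ± 45.1 CPM in heart ECs and 3201.5 ± 23.7 CPM in heart fibroblasts (interval of the interaction -0.28 to 0.44). Pltp, the phospholipid transfer protein, had gaps of -1.61 in lung and -1.73 in heart (interval of the interaction -0.13 to 0.38).

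Other lists held few calls. None of 18 interferon-stimulated genes was called in either direction by edgeR, 0 higher and 1 lower had an unadjusted p under 0.05, and DESeq2 called none. Their median interaction was -0.81, and their summed level was 3703.1, 4557 and 1148.5 CPM in lung ECs, 4103 to 5219 CPM in lung fibroblasts, 6114 to 9764 CPM in heart ECs and 6055 to 6625 CPM in heart fibroblasts, so the spread within ECs was wide. Of 15 contractile genes 2 were called lower, Des and Mylk, and none higher (1 higher at an unadjusted p under 0.05 and 1 by DESeq2), although 12 were higher in lung ECs than in heart ECs and 13 higher in lung fibroblasts than in heart fibroblasts. Of 19 cholesterol and fatty acid synthesis genes 3 were called higher and 2 lower, while 15 were lower in ECs than in fibroblasts in lung and 16 in heart. These shares of the interaction are near or under the 16.2% and 18.3% of all genes.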

How the data were processed

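The authors deposited 1 table of estimated counts per gene, as whole numbers, with Ensembl mouse gene IDs. Salmon, DESeq2 and mm10 are named per the submitters' processing notes, without versions; other steps are not given in the sources used here. Symbols and positions came from GENCODE M21 (GRCm38), and 305 IDs without a symbol held 0.0532% of counts.

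Counts were scaled by TMM (factors 0.889 to 1.11) and tested with edgeR 4.0.16 (limma 3.58.1, R 4.3.3) by quasi-likelihood with robust dispersions over all 18 libraries in 6 groups (12 residual degrees of freedom), after edgeR's default expression filter, with Benjamini-Hochberg adjustment over 14864 genes and a threshold of 0.05. DESeq2 1.42.0 was an alternative. SE is the log2 estimate divided by the square root of its F statistic. Replicates correlated at 0.9754 to 0.9872 across genes, and each pair differed by more than counting noise. One count equals 0.0408 to 0.0605 CPM.

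Genes named singly were those with the largest interaction, opposite gaps, an organ difference in 1 cell type or the same gap in both organs that kept their call without any 1 library, plus the strongest members of lists. Other list members were given as values without that condition. The 43 lists and the genes were chosen with earlier results of these data known. Some genes are on more than 1 list, so counts of different lists are not independent. Labels share replicate numbers 1 to 3 across groups. H19, Meg3 and Xist were not analysed here. Promoter windows are from RefSeq.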

Additional observations from a re-analysis of the deposited data

Results flagged for a closer look

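The EC-fibroblast gap differed between lung and heart, by a test of the difference itself, in 2415 genes higher and 2715 genes lower. Any single gene called in the interaction meets the same test, so the genes listed here are those whose gap also turned round between the organs. They are the 6 per direction with the largest smaller-of-the-2 absolute gap, among genes with a mean of at least 10 CPM in at least 1 group that kept their call without any 1 library, so other genes can have a larger interaction. The genes with the gap up in lung and down in heart were Stra6l (interaction 6.09), Apoc2 (6.01), Cdh19 (5.01), Il10ra (4.51), Ccr1 (4.20) and P2ry13 (3.95). Apoc2, Il10ra, Ccr1 and P2ry13 were higher in lung in both cell types, as was most of the macrophage list. The part of macrophage transcripts in them was not tested. Their heart gaps rest on few counts in heart ECs and heart fibroblasts: 2 and 26 for Apoc2, 6 and 33 for Il10ra, 14 and 51 for Ccr1, and 5 and 20 for P2ry13. Apoc2, an apolipoprotein gene, averaged 11.7 CPM in lung ECs and 2.17 CPM in lung fibroblasts, and 0.0299 CPM in heart ECs and 0.469 CPM in heart fibroblasts. Its interaction ranged from 5.27 without the second heart fibroblast library to 8.75 without the first heart EC library. Cdh19, a cadherin gene, averaged 1.45 CPM in lung ECs and 0.181 CPM in lung fibroblasts, and 4.56 CPM in heart ECs and 20.2 CPM in heart fibroblasts, with an interaction of 7.66 without the third lung fibroblast library. Il10ra, the interleukin 10 receptor gene, had an interaction of 3.85 without the first heart EC library. It averaged 12.5 CPM in lung ECs and 3.08 CPM in lung fibroblasts, and 0.11 CPM in heart ECs and 0.614 CPM in heart fibroblasts.

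The genes with the gap down in lung and up in heart were Cyp2s1 (interaction -7.85), Sez6l (-6.82), Fgf10 (-5.80), Map3k7cl (-5.46), S1pr3 (-5.36) and Cadm4 (-3.90). Cyp2s1, a cytochrome P450 gene, averaged 0.409 CPM in lung ECs and 5.75 CPM in lung fibroblasts, and 14.8 CPM in heart ECs and 0.886 CPM in heart fibroblasts. Its interaction was -9.45 without the third lung EC library. Map3k7cl averaged 0.961 CPM in lung ECs and 10.3 CPM in lung fibroblasts, and 0.926 CPM in heart ECs and 0.215 CPM in heart fibroblasts, with -6.77 without the first heart fibroblast library.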

How the results depend on the processing

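No median of a followed list changed sign, and no called direction reversed among 114 named genes. The lists followed were pan-endothelial, endothelial transcription factors, Notch, lymphatic, lung capillary, macrophage, mitosis, DNA replication, fibroblast and matrix, mesothelial and Hox. Also followed were acute phase and complement, chaperones and immediate early genes. Medians of other lists were not followed. The settings were other scaling (RLE), DESeq2, other filters, 12 libraries alone, a replicate block, glmTreat and any library left out. Called genes among the 114 were chosen to keep their call without any 1 library, so that setting could not reverse them. Genes outside the 114, such as Tie1, Csf1r, Col1a1 and Top2a, were not followed singly. Over all 5130 called genes, 0 were called in the reverse direction with any 1 library left out. Testing against a log2 change of 1 (glmTreat) left 572 genes higher and 682 lower in the interaction, 1428 and 984 in the lung gap, 867 and 308 in the heart gap, 900 and 741 between organs in ECs, and 994 and 672 in fibroblasts. It left 9 genes with the gap up in lung and down in heart and 13 the other way. By organ pattern it left 52 in opposite directions, 119 and 27 in the same direction and larger in ECs and in fibroblasts, and 354 and 507 in ECs and in fibroblasts alone. Lower members were 6 for DNA replication, 16 for fibroblast and matrix, 2 each for Hox and chaperones, and 5 for immediate early genes. This threshold is stricter by construction, and 10 of the named genes lost their call under it. Leaving out 1 library gave 2115 to 2523 genes higher and 2431 to 2806 lower, and 3943 of 5130 genes (76.9%) kept their call in all 12 such fits. With the replicate block 2346 were higher and 2600 lower. With the 12 native EC and fibroblast libraries alone, 2174 were higher and 2474 lower. Same-numbered libraries did not deviate together (r from -0.0971 to 0.117 over 18 pairs, 1 above 0.1), so the numbers were not taken as pairs. Leaving out the third lung EC and first lung fibroblast libraries together was chosen after seeing the data and changed no call of a named gene. Genes near 1 count per library, such as Hox genes in heart, are limited by depth.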

Other observations

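Over all genes tested, 16.2% were called higher and 18.3% lower in the interaction. Of 21 TGF-beta and BMP genes, 8 (38.1%) were called higher and 5 (23.8%) lower. Those higher included the ligand genes Bmp4, at 63.5 CPM in lung ECs and 5.01 CPM in lung fibroblasts, and 41.1 CPM in heart ECs and 21.2 CPM in heart fibroblasts (interaction 2.71 ± 0.148), and Tgfb2 (2.17 ± 0.167). Those lower included the BMP antagonist Grem1, at 307.1 CPM in lung ECs and 256.1 CPM in lung fibroblasts, and 13 CPM in heart ECs and 1.07 CPM in heart fibroblasts (-3.38 ± 0.604). Of 21 Wnt genes tested, 6 (28.6%) were called higher and 8 (38.1%) lower. Rspo3, an enhancer of Wnt signalling, averaged 79.7 CPM in lung ECs and 190.7 CPM in lung fibroblasts, and 15.2 CPM in heart ECs and 3.77 CPM in heart fibroblasts (-3.28 ± 0.163). Of 14 retinoic acid genes tested, 3 (21.4%) were called higher and 7 (50%) lower, among the lower ones the synthesis gene Aldh1a2 (-2.64 ± 0.217).

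Of 21 basement membrane and integrin genes, 4 (19%) were called higher and 5 (23.8%) lower, shares near those of all genes, and 12 were not called. Those called higher included the integrin subunit gene Itgb3, at 221.3 CPM in lung ECs and 7.2 CPM in lung fibroblasts, and 98.4 CPM in heart ECs and 22.6 CPM in heart fibroblasts (2.82 ± 0.286). Those called lower included the basement membrane gene Nid2, at 85.5 CPM in lung ECs and 472.1 CPM in lung fibroblasts, and 173.2 CPM in heart ECs and 118.9 CPM in heart fibroblasts (-3.01 ± 0.211). Of 20 lung capillary genes, 9 (45.0%) were called higher and 5 (25.0%) lower. Members of this list called higher include Plvap and Cldn5, which are also on the pan-endothelial list. Apln, which encodes apelin, averaged 245 CPM in lung ECs and 15.7 CPM in lung fibroblasts, and 51.5 CPM in heart ECs and 31.2 CPM in heart fibroblasts (3.24 ± 0.148). Of 20 glycolysis and hypoxia genes, 7 (35.0%) were called lower and none higher by edgeR (none higher at an unadjusted p under 0.05 or by DESeq2), with a median interaction of -0.36.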
